A study of Mus musculus with 2 samples.

Results

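Lef1, Tcf7, Tcf7l1 and Tcf7l2, the 4 mouse genes of the TCF/LEF family of transcription factors, were followed by symbol through 2 single-cell RNA-seq libraries. They are 4 of the 32285 genes in each matrix, and their levels were read per library in ciliary margin, progenitor, neuronal and mesenchymal cells. One library came from albino mice (strain label Swizz ICR) and the other from pigmented mice (strain label Tyrc2j). Both hold TdTomato-positive cells sorted from peripheral retina at embryonic day E13.5, with optic cups of 3 embryos pooled for each library. The labels used here do not name the driver of the reporter and list no treatment or other allele. Tyrc2j is also known as the name of an albino allele of Tyr, the tyrosinase gene, so the strain label of the pigmented library and its title do not sit together. The groups follow the titles. With 1 library a group, pigmentation cannot be told apart from strain, pool or sex, and no difference between the libraries has a replicate check.

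TCF/LEF proteins are the DNA-binding end of the Wnt/β-catenin pathway. Each carries an HMG box that recognises a short CTTTG-type site and an amino-terminal region that binds β-catenin. Without β-catenin they recruit Groucho/TLE corepressors and hold targets down, and with β-catenin they activate targets that include the pathway's own feedback inhibitors. Lef1 and Tcf7 are mostly known as activators and as targets of the pathway, Tcf7l1 mostly as a repressor, and Tcf7l2 as both. In the vertebrate eye, Wnt/β-catenin signalling is known for promoting the peripheral fates of the optic cup, the ciliary margin and the retinal pigment epithelium, against neural retina.

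After filtering, 3457 albino and 5737 pigmented cells remained, with a median of 11175 and 10340 UMIs (unique molecular identifiers, counted RNA molecules) per cell. Clustering both libraries together gave 23 clusters, of which 20 were named by marker genes into 10 classes, each called "-like" because the names rest on markers alone. Ciliary margin-like cells numbered 345 and 778 (9.98% of albino and 13.6% of pigmented cells), retinal progenitor-like cells 1114 and 2113, neurogenic progenitor-like cells 358 and 651, and retinal ganglion-like cells 690 and 554. The mesenchyme-like class held 128 and 230 cells, and the 3 unnamed clusters held 12.1% and 13.46% of cells. In the ciliary margin-like class the 12 listed margin markers summed to 1272 and 1516 UMIs per 1000000 (CPM), against 441 and 442 CPM in progenitor-like cells. The pools differed in sex: 96.0% of albino cells and 29.2% of pigmented cells carried Xist and no Y-linked UMI, while 0% and 46.1% carried the reverse. Xist is the X-inactivation RNA of female cells. The libraries shared 8 barcodes, of which 6 were kept in both.

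In the GENCODE M21 annotation of GRCm38, Lef1 (ENSMUSG00000027985) lies on the plus strand at chr3:131110471-131224356 and Tcf7 (ENSMUSG00000000782) on the minus strand at chr11:52252371-52283014. Tcf7l1 (ENSMUSG00000055799) lies on the minus strand at chr6:72626378-72789254 and Tcf7l2 (ENSMUSG00000024985) on the plus strand at chr19:55741820-55933654. Exons of Lef1 overlap those of Gm43352 and exons of Tcf7l1 those of Gm15401, both on the opposite strand, and the sources used here do not state how the counting treated strand.

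The sites the family binds were looked for as the 7-letter motifs CTTTGAT and CTTTGAA, on both strands, in windows from 250 bases before to 50 bases after each RefSeq start site (GRCm38.p6). Of 32851 windows, 3.73% held CTTTGAT, 5.14% held CTTTGAA and 8.65% held either, matches of both kinds being allowed to overlap. None of the 9 windows of the 4 family members held either motif, and 3 of 7 genes with a window in a list of 11 Wnt feedback targets did, against 2671 of 27025 genes (9.88%) in all. Of the other lists of pathway genes, 2 of 16 ligand and secretion genes with a window held a motif, 0 of 11 receptors, 1 of 7 secreted inhibitors, 1 of 6 cytoplasmic components, 0 of 6 coactivators, 0 of 12 corepressors and 3 of 4 other targets. The 3 feedback targets with a motif are shown because their levels were read beside those of the factors in margin-like and mesenchyme-like cells. Sp5 encodes a zinc-finger factor, Tnfrsf19 a receptor of the TNF family, and Dkk1 a secreted Wnt inhibitor. Each stretch is 100 bases, read 5′ to 3′ on the gene's strand, with the motif in capitals. The motif begins 104, 202 and 117 bases before the start site of Sp5, Tnfrsf19 and Dkk1, and in Tnfrsf19, where the window is that of the second annotated start, the capitals are CTTTGAT read from the opposite strand. The stretches lie at chr2:70474773-70474872 on the plus strand for Sp5, chr14:61038136-61038235 on the minus strand for Tnfrsf19 and chr19:30549560-30549659 on the minus strand for Dkk1. A match of letters is a description and not a bound site.
Sp5: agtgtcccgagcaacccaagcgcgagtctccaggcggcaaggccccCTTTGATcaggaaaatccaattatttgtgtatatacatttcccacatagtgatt
Tnfrsf19: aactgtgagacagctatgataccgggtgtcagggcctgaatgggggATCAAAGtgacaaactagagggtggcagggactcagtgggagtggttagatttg
Dkk1: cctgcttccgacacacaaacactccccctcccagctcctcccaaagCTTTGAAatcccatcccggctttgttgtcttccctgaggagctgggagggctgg

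The 4 factors had different distributions over the eye's cells. Over the 22 clusters with at least 20 cells in each library, levels in the 2 libraries had a Pearson's r of 0.711 for Lef1, against 0.896 to 0.982 for the other 3. The order of the classes for Lef1 differed below the first 2, with amacrine/horizontal-like cells the third in the albino and the seventh in the pigmented library. Surface ectoderm-like cells stood at rank 9 in the albino library (3.33 CPM, 11 UMIs) and at rank 3 in the pigmented library (28.6 CPM, 13 UMIs). That albino over pigmented ratio was 0.116 (0.0471 to 0.281), beyond counting error, but 1 pigmented cell held 69.2% of the pigmented UMIs. In this class the 10 surface ectoderm markers summed to 536 CPM in the albino and 46.3 CPM in the pigmented library. The latter is near the 44.5 CPM of all pigmented cells. Ganglion cell markers summed there to 4299 and 4051 CPM, so the class name is weak, most of all in the pigmented library. Over the 8482 genes measured in this class, the median albino over pigmented ratio was −0.362 on the log2 scale. The share of genes past 1.5-fold is not given for it. Lef1 was highest in mesenchyme-like cells and, within the retina, stood higher in margin-like than in progenitor-like cells. Tcf7 was concentrated in margin-like cells and in the few pigment epithelium-like cells. Tcf7l1 stood at nearly the same level in margin-like and progenitor-like cells, and Tcf7l2 was higher in progenitors. Both Tcf7l genes were close to 0 in ganglion-like cells. The level of a gene in a class is the sum of its UMIs over the class per 1000000 UMIs of those cells (CPM), with an exact 95% Poisson interval that covers counting error only. A summed level cannot tell fewer expressing cells from less RNA per cell. Because the libraries count 3′ ends, levels are compared between classes for one gene and not between genes.

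**Figure D1:**
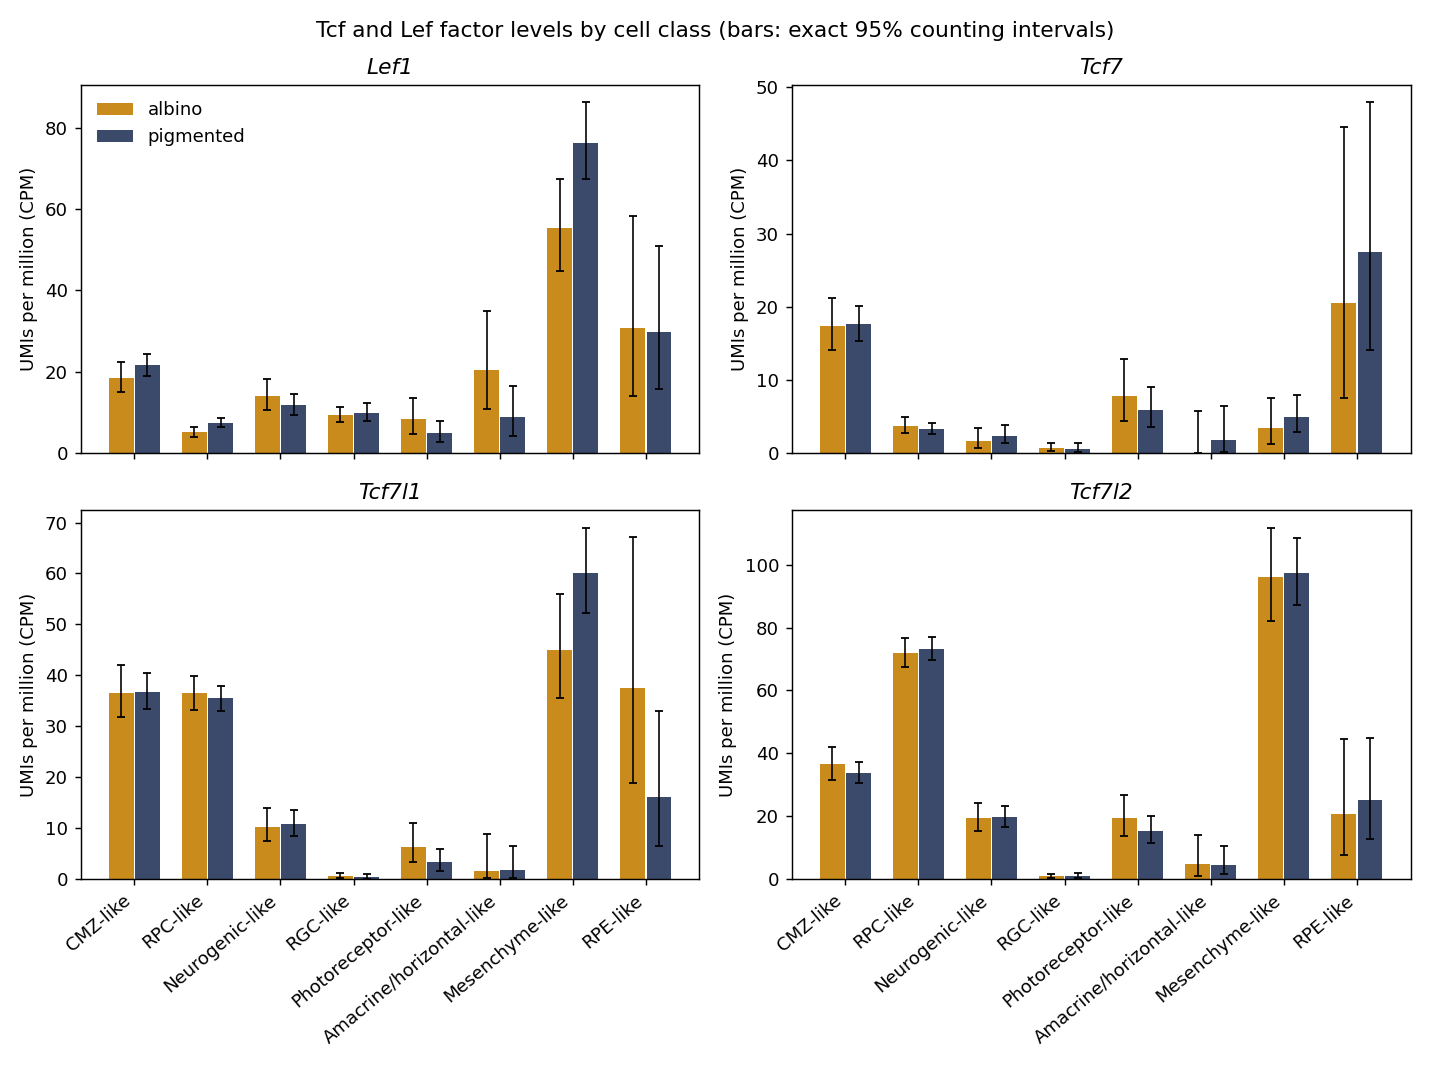
Level of each factor in CPM (y axis) by cell class (x axis), with the albino library left of the pigmented library in each pair; bars are summed UMIs per 1000000 and error bars are exact 95% Poisson intervals. Lef1 peaked in mesenchyme-like cells at 55.3 and 76.3 CPM, Tcf7 was high in margin-like cells at 17.4 and 17.6 CPM, and Tcf7l2 in progenitor-like cells stood at 71.9 and 73.3 CPM.

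Lef1 is the family member best known as both an activator and a target of the pathway. In the margin-like class it had 101 UMIs in the albino library and 258 in the pigmented library, or 18.5 CPM (15.1 to 22.5) and 21.7 CPM (19.1 to 24.5). Progenitor-like cells held 66 and 172 UMIs, or 5.12 CPM (3.96 to 6.51) and 7.49 CPM (6.41 to 8.69). The intervals of the classes did not overlap in either library, and the ratio of margin-like over progenitor-like cells was 3.61 (2.62 to 5.01) in the albino and 2.89 (2.38 to 3.53) in the pigmented library. With called doublets kept and the cells clustered again, the pigmented ratio was 0.97 on the log2 scale, under the 2-fold mark, against 1.53 without them. In share of cells, 22.3% of albino and 25.1% of pigmented margin-like cells had a Lef1 UMI, against 5.39% and 7.48% of progenitor-like cells. Margin-like cells were deeper, with medians of 13796 and 14316 UMIs against 10285 and 9786. After each cell was thinned to 5900 UMIs, the shares were 10.4% and 10.7% in margin-like cells and 2.78% and 4.18% in progenitor-like cells, so the difference stood at equal depth.

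Lef1 also had UMIs across neuron-forming and neuronal classes. Neurogenic progenitor-like cells had 14.2 CPM (10.8 to 18.3) and 11.8 CPM (9.36 to 14.6), 2.77 and 1.57 times the progenitor-like level and beyond counting error in both libraries. Ganglion-like cells had 97 and 81 UMIs, or 9.35 and 9.996 CPM, with a ratio over progenitor-like cells of 1.83 (1.32 to 2.54) and 1.34 (1.01 to 1.75). The pigmented value of that ratio turned to −0.10 (−0.48 to 0.26) on the log2 scale with called doublets kept. In cells with Xist and without Y-linked UMIs it turned to −0.19 (−1.08 to 0.63). Both are within counting error of equal levels. Photoreceptor-like cells had 8.33 CPM (16 UMIs) and 4.97 CPM (17 UMIs). In the amacrine/horizontal-like class Lef1 stood at 20.4 and 8.97 CPM, but 1 albino cell held 46.2% of the 13 albino UMIs. No Lef1 UMI was found in immune-like cells, 0 of 29 albino and 0 of 26 pigmented cells. Taking 3 counts as the limit, that allows shares of cells with a UMI of up to 10.3% and 11.5%, and the exact 95% Clopper-Pearson intervals reach 11.9% and 13.2%, which limits detection and not expression. In summed level, 3 counts would be 10.5 and 13.2 CPM, above the Lef1 level of progenitor-like, ganglion-like and photoreceptor-like cells of the same library. The immune-like cells, at median depths of 9579 and 7511 UMIs, therefore cannot show that background from free RNA lies below those levels.

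In mesenchyme-like cells Lef1 reached 55.3 CPM (44.8 to 67.5, 96 UMIs) and 76.3 CPM (67.3 to 86.1, 260 UMIs). That was 10.8 (7.81 to 15.01) and 10.2 (8.37 to 12.4) times the progenitor-like level. In the pigmented cells with Xist and without Y-linked UMIs it was 1.13 (−0.38 to 2.36) on the log2 scale, against 3.35 in all pigmented cells. The first value rests on 6 Lef1 UMIs in 27 mesenchyme-like cells and is within counting error. The step from mesenchyme-like to the next class in order, the pigment epithelium-like cells at 30.7 and 29.7 CPM, was 1.80 (0.909 to 4.05) in the albino library, within counting error, and 2.57 (1.48 to 4.89) in the pigmented library, beyond it. All 11 listed mesenchyme markers had UMIs in the mesenchyme-like cells of both libraries, summing to 3437 and 3209 CPM. Erythroid markers summed to 71.4 CPM in the albino and 1272 CPM in the pigmented mesenchyme-like cells (6 and 7 of 8 genes with UMIs), endothelial markers to 14.4 and 94.5 CPM (3 and 7 of 7) and immune markers to 1.15 and 105 CPM (2 and 3 of 8). Their part in the levels given here was not tested.

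Tcf7 encodes TCF1, known best from T cells. It was the rarest of the 4 by UMIs, with 199 in the albino and 377 in the pigmented library, and margin-like cells held 47.7% and 55.7% of them while contributing 12.2% and 18.01% of all UMIs. Its level there was 17.4 CPM (14.1 to 21.3) and 17.6 CPM (15.3 to 20.2), against 3.72 CPM (48 UMIs) and 3.31 CPM (76 UMIs) in progenitor-like cells. The ratio was 4.67 (3.27 to 6.76) and 5.33 (4.08 to 7.02). On the log2 scale it was 2.22 and 2.41, against 1.51 and 1.63 with called doublets kept, and 1.57 and 1.61 in the pigmented library at a coarser clustering and without class markers in the clustering, all past 2-fold. A Tcf7 UMI was seen in 23.5% and 22.0% of margin-like cells, against 4.22% and 3.27% of progenitor-like cells, and at 5900 UMIs per cell in 9.79% and 8.99%, against 2.18% and 1.57%. In ganglion-like cells 1.01% and 0.903% had a Tcf7 UMI, at median depths of 14459.5 and 14325 UMIs. Background from free RNA was not measured separately.

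Only 2 other classes stood above progenitors for Tcf7 beyond counting error in both libraries. Pigment epithelium-like cells had 20.5 and 27.4 CPM from 6 and 12 UMIs, 5.51 (1.93 to 12.9) and 8.29 (4.10 to 15.3) times the progenitor-like level, and did not differ from margin-like cells beyond counting error. Photoreceptor-like cells had 7.81 CPM (15 UMIs) and 5.85 CPM (20 UMIs), with ratios of 2.099 (1.09 to 3.81) and 1.77 (1.02 to 2.93). The margin-like level was still 2.23 and 3.01 times the photoreceptor-like one. Ganglion-like cells were low at 0.675 CPM (7 UMIs) and 0.617 CPM (5 UMIs), 0.181 (0.0693 to 0.403) and 0.187 (0.0589 to 0.455) of the progenitor-like level. Neurogenic cells had 1.71 and 2.41 CPM. Mesenchyme-like cells, where Lef1 was highest, had 3.45 CPM (6 UMIs) and 4.99 CPM (17 UMIs) of Tcf7, 0.928 and 1.51 times the progenitor-like level.

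Tcf7l1 encodes TCF3, a repressor known from embryonic stem cells and the anterior neural plate. It stood at 36.6 CPM (31.7 to 42.0) and 36.8 CPM (33.4 to 40.4) in margin-like cells, against 36.4 CPM (33.2 to 39.9) and 35.4 CPM (33.0 to 37.9) in progenitor-like cells. The ratio was 1.005 (0.847 to 1.19) in the albino and 1.04 (0.922 to 1.17) in the pigmented library, and both intervals include 1. In pigmented cells with Xist and without Y-linked UMIs the ratio was 0.37 (0.07 to 0.66) on the log2 scale, beyond counting error. At 5900 UMIs a cell, 16.8% and 16.9% of margin-like cells and 17.5% and 18.5% of progenitor-like cells had a Tcf7l1 UMI. Before thinning the shares were 38.0% and 37.9% against 31.1% and 29.4%. At 2950 UMIs a cell they were 7.92% and 10.4% in margin-like cells, against 11% and 9.69% in progenitor-like cells.

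The level of Tcf7l1 was lower in the neuronal classes. Neurogenic cells had 10.3 and 10.8 CPM, 0.281 (0.2002 to 0.386) and 0.304 (0.237 to 0.385) of the progenitor-like level. Photoreceptor-like cells had 6.25 CPM (12 UMIs) and 3.22 CPM (11 UMIs). Ganglion-like cells had 5 and 2 UMIs in all, or 0.482 and 0.247 CPM, with ratios of 0.0132 (0.00428 to 0.0311) and 0.00697 (0.000842 to 0.0252). In mesenchyme-like cells Tcf7l1 had 44.9 CPM (35.5 to 56.0) and 60.2 CPM (52.2 to 69.0). Mesenchyme-like, margin-like and progenitor-like levels did not differ beyond counting error in the albino library, while in the pigmented library the mesenchyme-like level was 1.64 times the margin-like one, beyond counting error.

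Tcf7l2 encodes TCF4, the member used by intestinal stem cells, and it had the most UMIs, 1516 and 2740. Progenitor-like cells held 61.2% and 61.5% of them while contributing 28.8% and 34.7% of all UMIs. The level there was 71.9 CPM (67.4 to 76.7) and 73.3 CPM (69.9 to 76.9), against which margin-like cells had 36.4 CPM (31.5 to 41.8) and 33.8 CPM (30.6 to 37.3). The margin-like level was 0.506 (0.432 to 0.591) and 0.461 (0.413 to 0.514) of the progenitor-like one. A Tcf7l2 UMI was seen in 36.8% and 39.1% of margin-like cells, against 51.5% and 48.6% of progenitor-like cells, and after thinning in 18.3% and 16.6%, against 35.3% and 32.6%.

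Mesenchyme-like cells had the highest Tcf7l2 level in each library, 96.1 CPM (82.1 to 112) and 97.4 CPM (87.2 to 108), which was 1.34 (1.13 to 1.58) and 1.33 (1.18 to 1.495) times the progenitor-like level. Below the margin-like class came immune-like (24.5 and 26.4 CPM), pigment epithelium-like (20.5 and 25.1 CPM), neurogenic (19.3 and 19.7 CPM) and photoreceptor-like cells (19.3 and 15.2 CPM), with neighbours in that order not separated beyond counting error. Ganglion-like cells were lowest with 8 and 7 UMIs, or 0.771 and 0.864 CPM, a ratio over progenitor-like cells of 0.0107 (0.00462 to 0.0212) and 0.0118 (0.00473 to 0.0243). The share of ganglion-like cells with a Tcf7l2 UMI was 1.01% and 1.26% before and 0.613% and 0.741% after thinning.

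**Figure D2:**
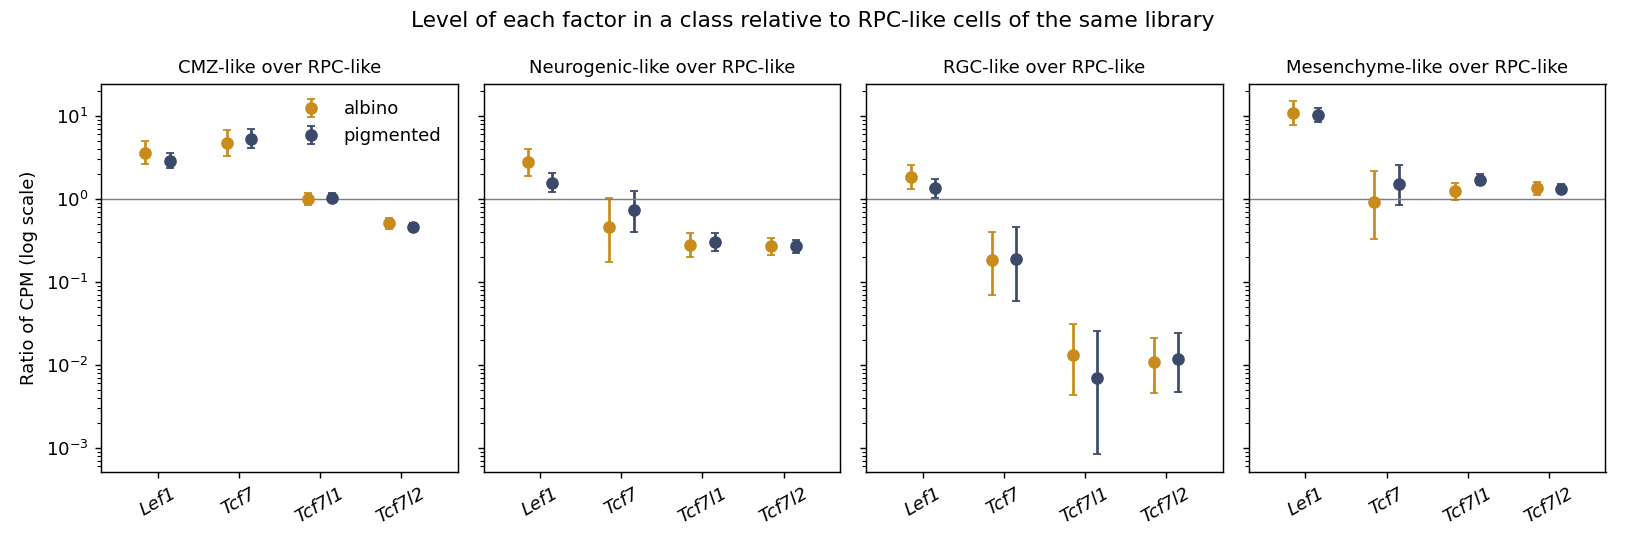
Ratio of margin-like (CMZ-like), neurogenic, ganglion-like (RGC-like) and mesenchyme-like over progenitor-like (RPC-like) cells (y axis, log scale) for each factor (x axis), albino left of pigmented; points are ratios, error bars exact 95% intervals for counting error, and the grey line marks equal levels. Lef1 and Tcf7 lie above the line in margin-like cells (3.61 and 2.89, 4.67 and 5.33), Tcf7l1 on it (1.005 and 1.04) and Tcf7l2 below it (0.506 and 0.461).

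Read against all genes, 2 of the 4 factors, Lef1 and Tcf7, were at least 2-fold higher in margin-like than progenitor-like cells in both libraries, where 2.38% of all genes measured were. None was at least 2-fold lower in both, where 2.35% of genes were. Tcf7l2 missed the mark in the albino library only, at 0.506 (0.432 to 0.591), an interval that spans the 2-fold mark. The albino progenitor-like level includes cluster 4, described below, with 46.6 CPM of Tcf7l2 against 78.1 CPM in the other progenitor-like clusters. In ganglion-like over progenitor-like cells 3 of 4, all but Lef1, were lower in both libraries, against 20.1% of genes. In neurogenic cells Tcf7l1 and Tcf7l2 were lower in both, against 8.61% of genes, and the same 2 factors were lower in photoreceptor-like cells, against 11.4%. In mesenchyme-like cells Lef1 was higher in both, against 9.56%. Pigment epithelium-like cells had Lef1 and Tcf7 higher in both, against 13.3%, from 22 and 18 UMIs over both libraries.

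Within the classes, levels differed between some clusters, and the contrasts given here were chosen after their values were seen. Among the neurogenic clusters, cluster 14, led by Gal, Insm2, Phlda1 and Cdc20, had 28.1 and 25.5 CPM of Lef1, against 10.3 and 7.31 CPM in the other neurogenic clusters. The ratio was 2.73 (1.56 to 4.74) and 3.49 (2.22 to 5.52). The unnamed cluster 2, led by Gal, Dlx1 and Insm2, had 25.8 and 16.9 CPM of Lef1, 5.04 (3.598 to 7.07) and 2.26 (1.72 to 2.94) times the progenitor-like level. Its Tcf7l1 level was 3.46 and 5.17 CPM and its Tcf7l2 level 5.66 and 6.36 CPM, both under the progenitor-like levels. Insm2 and Gal encode a zinc-finger factor of neuronal precursors and the neuropeptide galanin.

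Among progenitor-like clusters, cluster 4 had the weakest claim to its name. Progenitor markers stood there at a mean log2 fold of 0.424, against 0.886 to 1.05 in clusters 0, 1 and 5. A naming margin of 0.5 therefore leaves it unnamed. It was led by Hist1h2bc, Ccnb2, Epcam and Knstrn, while the mitosis genes Ube2c, Cenpf and Prc1 led cluster 5. For Tcf7l2, cluster 4 stood apart. It had 46.6 and 46.7 CPM, against 78.1 and 81.6 CPM in the other progenitor-like clusters, a ratio of 0.596 (0.487 to 0.724) and 0.572 (0.498 to 0.654). The other 3 clusters lay between 70.1 and 86.8 CPM in the albino library and between 80.5 and 83.5 CPM in the pigmented library. Tcf7l1 did not differ there beyond counting error, with ratios of 0.956 and 1.06. Lef1 had 9.08 and 9.59 CPM in cluster 4, against 4.15 and 6.84 CPM, a ratio of 2.19 (1.26 to 3.71) in the albino library and 1.40 (0.993 to 1.96) in the pigmented library.

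The margin-like class holds 3 clusters, and Tcf7 was present in each at 13.6 to 20.4 CPM in the albino and 16.03 to 18.8 CPM in the pigmented library. The margin-like cluster 6 differed from the other 2 beyond counting error only in the pigmented library, for Tcf7l1 (1.29, 1.07 to 1.57) and Tcf7l2 (1.24, 1.01 to 1.51). Within photoreceptor-like cells, cluster 16, led by Gngt2, Pdc and Crx, genes of developing photoreceptors, had 10.8 and 15.1 CPM of Tcf7, against 6.86 and 2.74 CPM in cluster 9. The ratio was 1.57 (0.422 to 5.05) in the albino library and 5.52 (2.05 to 16.3) in the pigmented library, from 5 and 13 UMIs in cluster 16. In ganglion-like cells Lef1 was equal in clusters 7 and 3 of the albino library (9.32 and 9.38 CPM, ratio 0.994, 0.651 to 1.51) but not of the pigmented library (16.1 and 5.96 CPM, ratio 2.69, 1.68 to 4.40).

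**Figure D3:**
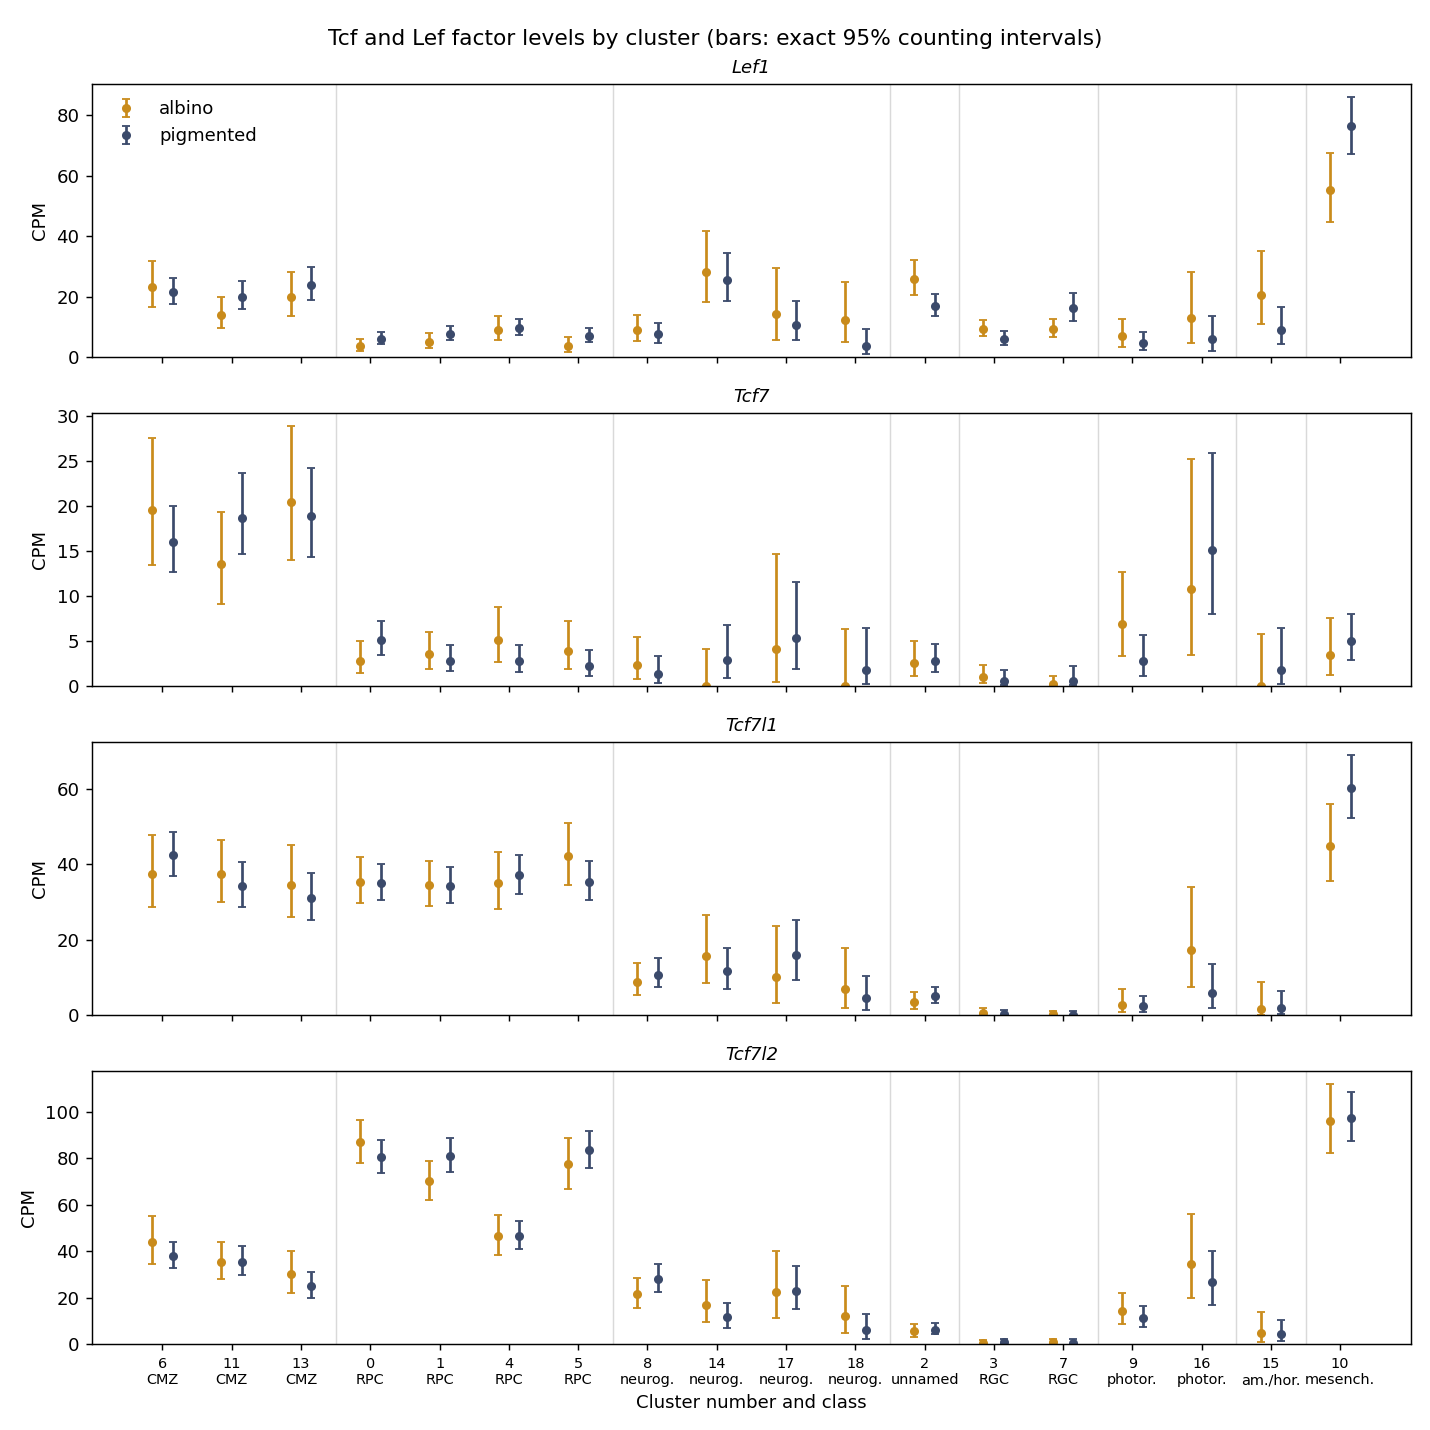
Level of each factor in CPM (y axis) in the clusters of the retinal and mesenchyme-like classes and the unnamed cluster 2 (x axis, grouped by class), albino points left of pigmented points with exact 95% Poisson intervals. Tcf7l2 in the progenitor-like cluster 4 stood at 46.6 and 46.7 CPM, under the other progenitor-like clusters, and Lef1 in the neurogenic cluster 14 stood at 28.1 and 25.5 CPM.

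Over all kept cells the level was 12.4 and 15.1 CPM for Lef1, 4.45 and 5.70 CPM for Tcf7, 19.5 and 24.5 CPM for Tcf7l1, and 33.9 and 41.4 CPM for Tcf7l2. The ratio of albino over pigmented was 0.823 (0.741 to 0.914) for Lef1, 0.780 (0.654 to 0.929) for Tcf7, 0.796 (0.732 to 0.865) for Tcf7l1 and 0.818 (0.768 to 0.871) for Tcf7l2. None reached 1.5-fold, where 9.83% of all genes measured did. The classes were not equally represented: ganglion-like cells, in which 3 of the factors were near 0, made up 19.96% of albino and 9.66% of pigmented cells, and progenitor-like cells 32.2% and 36.8%.

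In margin-like cells the ratio of albino over pigmented was 0.854 (0.671 to 1.08) for Lef1, 0.987 (0.766 to 1.26) for Tcf7, 0.996 (0.838 to 1.18) for Tcf7l1 and 1.08 (0.904 to 1.28) for Tcf7l2. Every one of these intervals includes 1, and none of the 4 reached 1.5-fold, as 7.08% of genes did. In progenitor-like cells Lef1 had a ratio of 0.683 (0.506 to 0.913), short of 1.5-fold but beyond counting error, and the other 3 had 1.12, 1.03 and 0.981. No factor reached 1.5-fold there, against 4.78% of genes, nor in neurogenic cells, against 7.24%. With only cells that had Xist and no Y-linked UMI, however, the ratio of albino over pigmented for Lef1 in neurogenic cells was 1.08 (0.19 to 2.07) on the log2 scale, past 1.5-fold and beyond counting error. In the same cells the ratio for Tcf7l1 in neurogenic cells was 0.51 and that for Lef1 in ganglion-like cells 0.64 on the same scale, both within counting error. In mesenchyme-like cells Lef1 had 0.724 (0.567 to 0.919) and Tcf7l1 0.746 (0.567 to 0.973), both lower in the albino library beyond counting error, while Tcf7 had 0.692 (0.224 to 1.84) and Tcf7l2 0.987 (0.814 to 1.19). None reached 1.5-fold, against 13.7% of genes. In photoreceptor-like cells Lef1 had 8.33 CPM in the albino and 4.97 CPM in the pigmented library, a ratio of 1.67 (0.792 to 3.52), and Tcf7l1 had 6.25 and 3.22 CPM, a ratio of 1.94 (0.784 to 4.85). Both passed 1.5-fold, where 9.44% of genes did, but rest on 11 to 17 UMIs a library and their intervals include 1. In amacrine/horizontal-like cells Lef1 had a ratio of 2.28 (0.922 to 5.80), where 14.7% of genes passed 1.5-fold, and that interval includes 1 too.

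**Figure D4:**
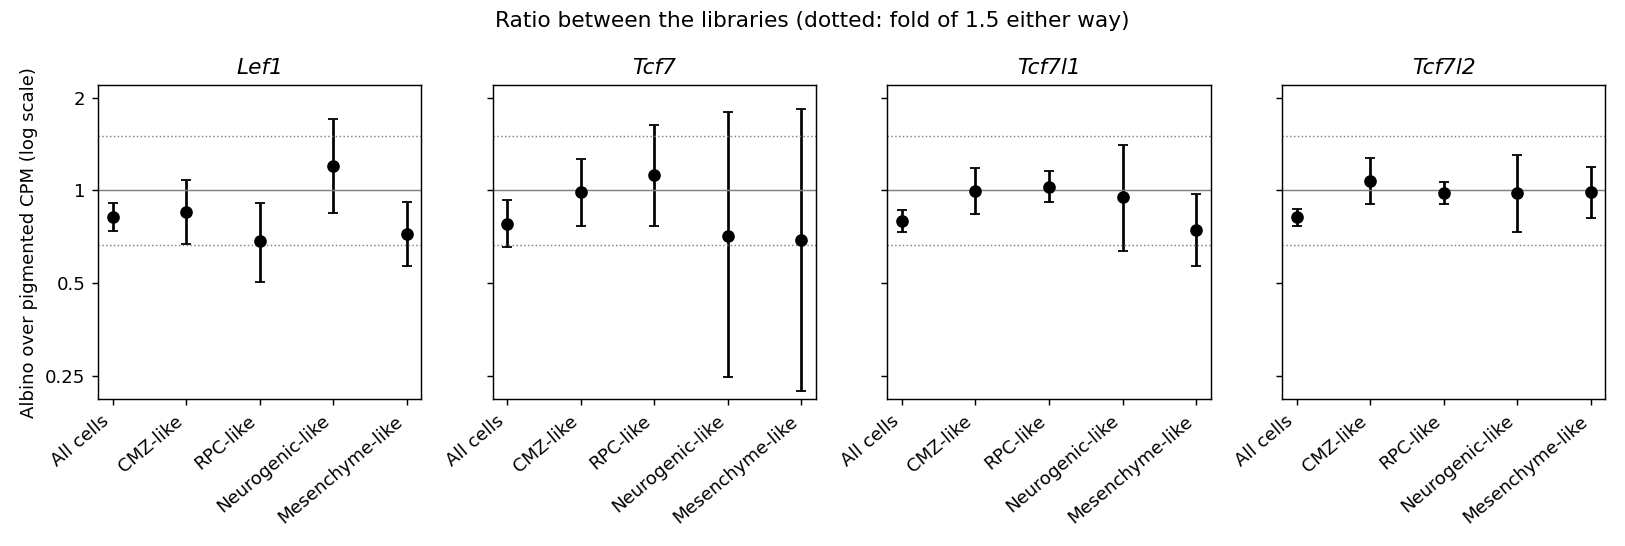
Ratio of albino over pigmented level (y axis, log scale) for each factor in all cells and in 4 classes (x axis), with exact 95% counting intervals; the grey line marks equal levels and the dotted lines 1.5-fold. In margin-like cells all 4 intervals include 1, with ratios between 0.854 and 1.08, and in mesenchyme-like cells Lef1 and Tcf7l1 lie below 1 at 0.724 and 0.746.

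Since the pools differed in sex, cells of each class were also divided by Xist and Y-linked UMIs, a split added after the data were seen. In pigmented mesenchyme-like cells Lef1 had 15.1 CPM in the 27 cells with Xist alone (6 UMIs), against 91.6 CPM in the 154 cells with Y-linked UMIs alone (218 UMIs). The ratio was 0.165 (0.0599 to 0.365). The 125 albino mesenchyme-like cells with Xist alone had 55.8 CPM (96 UMIs), between these values, so the ratio of albino over pigmented in Xist-only cells turned to 1.88 on the log2 scale. Axin2, a feedback inhibitor and common readout of the pathway, followed Lef1 in these cells, with 15.1 CPM against 49.2 CPM in the pigmented library (ratio 0.308, 0.111 to 0.690) and 54.6 CPM in albino Xist-only cells. Tcf7l1 (0.779) and Tcf7l2 (1.33, 0.960 to 1.82) did not differ there beyond counting error. Each pool holds 3 embryos, so sex and embryo cannot be told apart.

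In margin-like cells the same split gave 19.4 CPM of Lef1 in pigmented Xist-only cells, against 22.1 CPM in Y-only cells, and 18.7 CPM in albino Xist-only cells. The ratio within the pigmented library was 0.877 for Lef1, 1.15 for Tcf7, 1.12 for Tcf7l1 and 1.03 for Tcf7l2, none beyond counting error. In neurogenic cells Lef1 had 6.73 CPM in Xist-only and 13.3 CPM in Y-only pigmented cells, a ratio of 0.508 (0.253 to 0.947). In progenitor-like cells Tcf7l1 had a ratio of 0.826 (0.699 to 0.974), and Tcf7l2, at 1.12, was just beyond counting error.

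**Figure D5:**
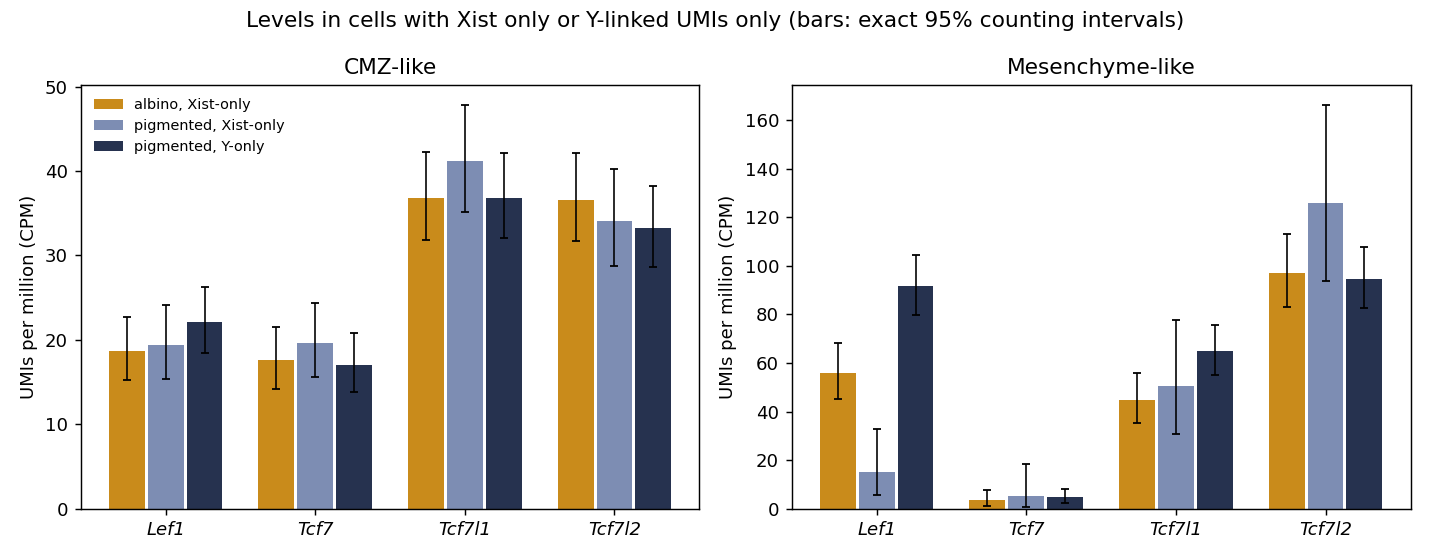
Level of each factor (x axis) in CPM (y axis) in margin-like and mesenchyme-like cells, for albino Xist-only, pigmented Xist-only and pigmented Y-only cells from left to right; bars are levels and error bars exact 95% Poisson intervals. Lef1 in mesenchyme-like cells stood at 55.8, 15.1 and 91.6 CPM, while in margin-like cells it stood at 18.7, 19.4 and 22.1 CPM.

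Single cells seldom held UMIs of several factors. At 5900 UMIs a cell, 54.4% of albino and 56.4% of pigmented margin-like cells had no UMI of any member, 26 and 60 cells had 2 members, 3 and 6 had 3, and no cell had all 4. Lef1 and Tcf7 were found together in 5 and 7 margin-like cells, where the product of their shares gives 3.33 and 7.19. Tcf7l1 and Tcf7l2 were found together in 66 and 142 progenitor-like cells, where the product gives 62.0 and 116, and in 10 and 25 margin-like cells, where it gives 10.1 and 21.0. In mesenchyme-like cells Lef1 was detected in 33.3% and 46.2% of cells with an Axin2 UMI, against 15.1% and 20.6% of cells without one. That is 8 and 18 cells with both, where the product gives 4.51 and 9.84. These are descriptions, since cells of 1 library are not replicates.

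The rest of the pathway was read from 8 lists of Wnt pathway genes, leaving out genes with fewer than 20 UMIs. Feedback targets, the genes that β-catenin and TCF/LEF switch on to restrain the pathway, included several that stood high in margin-like and mesenchyme-like cells. Of 9 measured, 5 were at least 2-fold higher in margin-like than progenitor-like cells in both libraries and 0 were lower, against 2.38% and 2.35% of all genes, with a median ratio of 2.31 and 2.58 on the log2 scale, where all genes had −0.02 and −0.06. With a minimum of 50 UMIs, 5 of 8 were higher and 0 lower. Notum, which encodes a secreted Wnt-inactivating lipase, had ratios of 39.7 (16.3 to 125) and 32.6 (18.3 to 64.2). Dkk1, whose start window holds CTTTGAA, had 24.6 (14.7 to 44.1) and 34.6 (21.8 to 58.2). Nkd2, an inhibitor of Dishevelled, had 10.4 in each library, Tnfrsf19 had 6.77 and 8.06, and Axin2 had 5.10 (2.89 to 9.30) and 6.10 (4.18 to 9.08). Other targets did not share this: Nkd1 had 0.813 and 0.732, and Lgr5, a stem cell receptor of the pathway, 0.696 and 0.596. The cyclin Ccnd2 was 4.78 and 6.20 times higher in margin-like cells, and its paralogue Ccnd1 stood at 0.432 and 0.375.

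None of 7 coactivators, 13 corepressors of the Groucho/TLE kind and others, or 10 cytoplasmic components passed 2-fold in both libraries in either direction. Ctnnb1, which encodes β-catenin itself, had 161 and 158 CPM in margin-like cells, 1.15 and 1.11 times its progenitor-like level. Among 17 receptor genes 3 were higher and 2 lower, against 2.38% and 2.35% of all genes: Fzd7 (3.13 and 2.70), Ror1 (3.08 and 3.39) and Ror2 (3.31 and 4.99) were higher, and Fzd9 and Fzd10 lower. Of 4 ligand and secretion genes measured 1 was higher, and of 7 secreted inhibitors 2 were. The secreted inhibitor Sfrp2 stood at 0.514 and 0.434.

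In mesenchyme-like cells, where Lef1, Tcf7l1 and Tcf7l2 were all at high levels, 6 of 9 feedback targets were higher than in progenitor-like cells in both libraries and 0 lower, against 9.56% and 7.22% of all genes. Axin2 had 54.1 and 41.4 CPM there, 36.7 and 25.7 times the progenitor-like level, and Apcdd1, a membrane inhibitor of the pathway, had ratios of 50.004 and 47.5. Dkk1 had ratios of 35.7 and 46.1 and Tnfrsf19 of 23.3 and 17.2. Sp5, whose start window holds CTTTGAT, had 18.4 and 15.8 CPM in mesenchyme-like cells and no UMI in progenitor-like cells of either library. Of 7 ligand and secretion genes 5 were higher, among them Wnt5a (28.8 and 19.8), and of 13 corepressors only Tle2 was (5.45 and 5.59). Genes nearly absent from progenitor-like cells passed the minimum of 20 UMIs only through the mesenchyme-like cells where they were high. With a minimum of 50 UMIs, 4 of 7 feedback targets were higher and 0 lower, and 3 of 4 ligand and secretion genes were higher.

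In ganglion-like cells, where Tcf7, Tcf7l1 and Tcf7l2 were near 0, 13 of 16 measured receptors were at least 2-fold lower than in progenitor-like cells in both libraries and 0 were higher, against 20.1% and 15.1% of all genes. Fzd5, a Frizzled receptor of the eye field, had ratios of 0.0270 and 0.0365. The receptor median was −2.09 and −2.12 on the log2 scale, against −0.14 and −0.18 over all genes. With a minimum of 50 UMIs, 8 of 11 receptors were lower and 0 higher, with medians of −1.47 and −1.25. Coactivators did not follow, with 0 of 7 past 2-fold, and of 10 cytoplasmic components 3 were higher. Axin2 had 2.89 and 2.96 CPM in ganglion-like cells, against 1.47 and 1.61 CPM in progenitor-like cells. Between albino and pigmented margin-like cells, no gene of the receptor, inhibitor, cytoplasmic, coactivator, corepressor or target lists passed 1.5-fold, and 2 of 6 ligand and secretion genes did, both lower in the albino library, as 3.7% of all genes were. With a minimum of 50 UMIs, 4 ligand and secretion genes were measured and 0 were lower.

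Genes with the most similar pattern were found by Pearson's r of log2 (CPM + 10) over the 22 clusters with at least 20 cells in each library, among 11206 genes, as the 5 with the highest value of the lower r of the 2 libraries. The clusters share library and depth, and most genes compared were open to use in the clustering, so r is a description. For Lef1 these were Chd3, Cthrc1, Alcam, Axin2 and Tpm1, with Axin2 at 0.706 in the albino and 0.710 in the pigmented library. For Tcf7 they were Msx1, Slc38a8, Dazl, Maob and Kcnj13, with Msx1, a homeobox gene of the margin that was also used to name the class, at 0.808 and 0.775. For Tcf7l1 they were Yap1 (0.940 and 0.915), a coactivator of the Hippo pathway, Parva, Gulp1, Rest and Id2. For Tcf7l2 they were Etv1 (0.897 and 0.903), an ETS factor, Alg6, Rest, Tmem64 and Wtip. Rest, a repressor of neuronal genes, was among the 5 for both Tcf7l genes. Tcf7l1 and Tcf7l2 had r of 0.860 and 0.797 with each other, and Lef1 and Tcf7 0.105 and 0.292.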

How the data were processed

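Single-cell 3′ libraries of sorted TdTomato-positive cells, 1 albino and 1 pigmented, were read as the deposited matrices of raw UMI counts. Counts came from Cell Ranger on mouse build mm10, per the submitters' processing notes, which give version 2.1.1. The file headers give 5.0.1, so the version is unclear. The lowest barcode totals were 501 and 500 UMIs, so the deposited barcodes were a selection, made by a rule that the labels do not state. The matrices held 3676 albino and 6089 pigmented barcodes with 46271969 and 69965728 UMIs. The TdTomato transcript was not examined.

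Barcodes under 500 genes (110 and 134) or over 10% mitochondrial UMIs (136 and 188) were left out. Scrublet doublets were called at a score of 0.25 in both libraries, set after the automatic thresholds had been seen (56 and 146 barcodes, 1.52% and 2.40%). In the pigmented library 2.70% of kept cells carried both Xist and Y-linked UMIs. Both libraries were clustered together without batch correction and without the 4 factors and the pathway genes (2000 variable genes, 30 components, 15 neighbours, Leiden resolution 1, Scanpy 1.11.5, Python 3.11.15). A cluster took the class whose markers led by a mean log2 fold of 0.3 over the next, with at least 3 markers in 10% of its cells. Markers of the class were among the genes clustered, so a class differing from the rest in its markers is no finding.

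UMIs were summed per class and library and given as CPM. Intervals are exact Poisson, exact conditional for ratios and Clopper-Pearson for shares, at 95%, and cover counting error only. The ratio intervals were checked on simulated Poisson counts. Those counts leave out the gathering of UMIs in single cells, so the check does not cover it. With 1 library a group there is no test and no p-value. A ratio was called at 1.5-fold between libraries and 2-fold between classes, for genes with at least 20 UMIs, with 1 UMI added for lists and for all genes. Thinning to 5900 UMIs left out 397 albino and 583 pigmented cells. Named are the 4 members, the 5 genes most like each and genes of the pathway lists. Members, lists and markers were chosen with earlier results of these data known. The alternatives were other filters, doublets kept, other resolutions, naming margins, scaling, weighting and depths, Xist-only cells, and, chosen after seeing the data, clustering without the class markers.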

Additional observations from a re-analysis of the deposited data

How the results depend on the processing

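Values here are log2 ratios. Over the alternatives run, 441 ratios between the classes and libraries compared kept within their counting interval and direction, 23 moved beyond it and 3 reversed, and of the albino over pigmented ratios in the smaller comparisons 150 kept, 4 moved and 1 reversed. Shares of cells with a UMI depend on depth, and 50 of them moved with no thinning or with thinning to 2950 UMIs. With called doublets kept, margin-like over progenitor-like cells gave 1.51 (albino) and 1.63 (pigmented) for Tcf7, 0.97 (pigmented) for Lef1 and −0.76 (albino) for Tcf7l2. The same setting gave, for mesenchyme-like over progenitor-like cells, 2.90 (albino) and 2.83 (pigmented) for Lef1 and −0.49 (pigmented) for Tcf7. For Lef1 in ganglion-like over progenitor-like cells it gave 0.36 (albino) and −0.10 (pigmented, reversed), both within counting error. At resolution 0.5 the pigmented library gave 1.19 for Lef1 and 1.57 for Tcf7 in margin-like over progenitor-like cells, and 3.03 for Lef1 and −0.28 for Tcf7 in mesenchyme-like over progenitor-like cells. With class markers left out of the clustering the pigmented values were 1.14 for Lef1 and 1.61 for Tcf7 in the margin-like ratio and 3.03 for Lef1 in the mesenchyme-like ratio. The cause of these shifts was not tested. In Xist-only cells, albino over pigmented Lef1 was 0.29 over all cells and 1.88 in mesenchyme-like cells, both reversed, and Tcf7l2 in progenitor-like cells was −0.15. Among pigmented Xist-only cells, Lef1 was 1.13 in mesenchyme-like and −0.19 (reversed) in ganglion-like over progenitor-like cells, both within counting error. In the same cells Tcf7l1 was 0.37 in margin-like and Tcf7l2 0.66 in mesenchyme-like over progenitor-like cells. With every cell weighted equally, albino over pigmented was −0.081 for Lef1 and −0.16 for Tcf7l1 over all cells and −0.26 for Tcf7l1 in margin-like cells. With 1000 genes required per cell, pigmented Tcf7l1 in ganglion-like over progenitor-like cells was −4.77. With a minimum of 50 UMIs, 1 pathway gene in place of 3 was lower in margin-like than progenitor-like cells in both libraries. Size factors from the median of ratios, in place of UMI totals, shifted ganglion-like cells by −0.17 (albino) and −0.14 (pigmented), and scaling without mitochondrial, ribosomal protein and haemoglobin genes shifted them by 0.17 in each, without moving a ratio of the 4 factors out of its interval. No paired analysis was possible because each group has 1 library and the labels carry no replicate numbers. Depth limits Tcf7 most, since classes outside the margin and progenitors held at most 20 of its UMIs.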

Other observations

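Axin2 and Ccnd2, targets of the pathway, differed between the libraries in some classes. Axin2 had 71.7 CPM (21 UMIs in 16 cells) in albino and 25.1 CPM (11 UMIs in 45 cells) in pigmented pigment epithelium-like cells, but 1 albino cell held 57.1% of the albino UMIs. Ccnd2 had 196 CPM in albino and 275 CPM in pigmented margin-like cells, a ratio of 0.711 (0.663 to 0.762), beyond counting error but short of 1.5-fold, while the ratios of the 4 factors in those cells lay between 0.854 and 1.08. In ganglion-like cells Ccnd2 had 7 UMIs (0.675 CPM) in the albino and 34 UMIs (4.196 CPM) in the pigmented library, a ratio of 0.161 (0.0602 to 0.369). Those UMIs came from 5 albino and 20 pigmented cells, and 1 cell of each library held 42.9% and 29.4% of them. There is 1 library a group, so these differences have no replicate check.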
